A study of Mus musculus with 18 samples.

Results

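Cytochrome P450 enzymes of the Cyp2b and Cyp3a subfamilies oxidise drugs, steroids and other foreign compounds in the endoplasmic reticulum of hepatocytes. Their best known regulators are the nuclear receptors CAR (Nr1i3) and PXR (Nr1i2), which bind DNA with RXR and respond to xenobiotics. In adult mouse liver Cyp3a11 and Cyp3a25 are highly expressed in both sexes, whereas Cyp2b9, Cyp2b13, Cyp3a16, Cyp3a41a and Cyp3a44 are known as female-predominant genes whose levels follow the pattern of growth hormone release. The 10 genes described here (Cyp2b9, Cyp2b10, Cyp2b13, Cyp3a11, Cyp3a13, Cyp3a16, Cyp3a25, Cyp3a41a, Cyp3a44 and Cyp3a59) are all the rows of these names, matched by symbol, in a deposited table of 54838 genes.

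The table held bulk RNA-seq of 18 C57BL/6 mouse liver samples aged 36 weeks, in 6 groups of 3. Wild type (WT) mice and mice with a global knockout of miR-181ab1 (GKO) each gave untreated normal liver, non-tumour liver after diethylnitrosamine (DEN) and DEN-induced tumour. DEN, a carcinogen that hepatic P450 enzymes activate, was given once at 25 mg/kg on postnatal day 12. The methods give the pups as male. The knockout removes the microRNA cluster from every cell of the animal, and WT mice were littermates. The labels do not tie a tumour to the non-tumour liver of its own mouse. A legend in the supplement counts mice as the samples of the tumour and non-tumour groups, but the labels do not say so for any group. P-values measure the spread between these samples, of which part may be technical.

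Each sample held 11925059 to 20751353 reads on genes (median 16973797), recovered from TPM and gene length. Levels below are TPM, a share of all transcripts that is corrected for the total exon length of each gene. For Cyp3a11 that length was 5093 bases, against 2344 bases for its longest protein-coding transcript. For every other member these lengths were close or equal. The TPM of Cyp3a11 may therefore be too low beside those of the other members. The Mir181a-1 hairpin had 1 read in 1 GKO tumour and 0 in the other 17 samples, and Mir181b-1 had 0 in all 18, so these libraries do not check the genotype labels. Xist was at most 0.0339 TPM in all 18 samples. In the 6 tumours the hepatocyte markers summed to 236912 to 275864 TPM, against 134346 to 192694 in the 6 non-tumour livers. WT tumours 1 and 2 resembled each other more (r = 0.982 across genes) than any of the 14 other pairs of tumours did (0.911 to 0.95). The library labelled WT non-tumour liver 2 stood apart from the other non-tumour livers. Its Dcn (6.23 TPM), Clec4f (5.95 TPM) and Marco (1.53 TPM), markers of fibroblasts and of Kupffer cells, lay within the ranges of the tumours. They were picked with values known from 7 fibroblast and 7 macrophage markers. The others are not given, so these markers do not stand for their lists. Of the 6 fibroblast markers tested over both genotypes, 3 were called higher in tumours and 1 lower. The Glul of this library (159 TPM) also lay within the ranges of the tumours. Its Cyp2e1 (8049 TPM), Onecut2 (10.6 TPM), Cyp2a4 (35.5 TPM) and Lcn2 (47.7 TPM) lay outside. Its Gstm3 (8423 TPM) and Cyp2c55 (196 TPM) were the highest of all samples. For several results the value without one of these libraries is given beside them.

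The 3 Cyp2b genes lie on chromosome 7 and the 7 Cyp3a genes on chromosome 5 (mm10, GENCODE M21), and close copies could share or lose reads in counting. Of the 100-base windows of the longest protein-coding Cyp3a41a transcript, 90.8% also occurred in a transcript of another gene, so its level is uncertain. The share was 9.29% for Cyp2b13, 6.05% for Cyp3a25, 5.61% for Cyp3a59, 5.37% for Cyp3a44 and at most 1.18% for the other 5 genes. Most of each of the other transcripts was therefore distinct at this window size. The upstream sequences are shown next because the members that moved in opposite directions sit in these 2 clusters, and the alignments show which of them share upstream sequence. They run from base -250 to base -111 before the RefSeq start of each gene (GRCm38.p6), and capitals mark AGGTCA or its reverse complement, the half-site to which receptors such as CAR, PXR and RXR bind in pairs.
Cyp2b9, chr7:26173159-26173298, plus strand: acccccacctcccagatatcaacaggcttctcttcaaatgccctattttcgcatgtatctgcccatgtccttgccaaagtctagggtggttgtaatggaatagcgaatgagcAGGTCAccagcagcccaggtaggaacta
Cyp2b13, chr7:26061245-26061384, plus strand: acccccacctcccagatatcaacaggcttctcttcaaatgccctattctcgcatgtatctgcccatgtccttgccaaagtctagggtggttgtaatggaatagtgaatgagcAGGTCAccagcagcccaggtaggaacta
Cyp2b10, chr7:25897408-25897547, plus strand: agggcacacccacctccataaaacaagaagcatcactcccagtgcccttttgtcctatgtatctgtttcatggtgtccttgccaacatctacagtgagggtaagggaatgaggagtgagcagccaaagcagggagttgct
Cyp3a11, chr5:145879965-145880104, minus strand: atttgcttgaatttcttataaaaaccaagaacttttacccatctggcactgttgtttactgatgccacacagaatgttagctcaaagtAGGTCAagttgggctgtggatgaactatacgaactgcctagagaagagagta
Cyp3a44, chr5:145805985-145806124, minus strand: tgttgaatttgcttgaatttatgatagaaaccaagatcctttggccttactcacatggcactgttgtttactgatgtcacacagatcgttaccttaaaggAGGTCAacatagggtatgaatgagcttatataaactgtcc
Cyp3a25, chr5:146009729-146009868, minus strand: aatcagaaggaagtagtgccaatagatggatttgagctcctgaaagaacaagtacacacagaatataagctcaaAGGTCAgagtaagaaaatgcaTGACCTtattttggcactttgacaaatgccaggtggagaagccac
Cyp3a59, chr5:146079008-146079147, plus strand: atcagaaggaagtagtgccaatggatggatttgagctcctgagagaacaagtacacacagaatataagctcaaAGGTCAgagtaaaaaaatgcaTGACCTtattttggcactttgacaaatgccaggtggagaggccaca

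The Cyp2b9 and Cyp2b13 windows differed at 2 of 140 bases (98.6% identity), whereas each was 66% identical to that of Cyp2b10. Among the Cyp3a genes, Cyp3a25 and Cyp3a59 shared 95.7% of this window and Cyp3a41a and Cyp3a44 shared 95%, whereas Cyp3a11 and Cyp3a44 shared 67.5%. The half-site occurred, on either strand, in the windows of 6 of the 10 members (Cyp2b9, Cyp2b13, Cyp3a11, Cyp3a25, Cyp3a44 and Cyp3a59) and in 7.99% of the 32851 promoter windows of the same length. Its first base lay at -138 in both Cyp2b9 and Cyp2b13, at -162 in Cyp3a11 and at -150 in Cyp3a44. Members of a cluster are copies of one another, so these matches are not independent. The STAT5 motif TTCNNNGAA, the site of the growth hormone signal transducer, was in 0 of the 10 windows and in 4.1% of all windows. TGTTTAC, bound by forkhead factors of the liver, was in 4 (Cyp3a11, Cyp3a16, Cyp3a41a and Cyp3a44) and in 1.89% of all windows. Paired half-sites, the classical elements for CAR and PXR, were searched as AGGTCA repeated after 3 or 4 bases (DR3 and DR4) and as TGAACT followed after 6 bases by AGGTCA (ER6), each of which includes the single half-site. They matched in 0 of the 10 windows and in at most 1 of all windows. Both strands were searched, and no match says only that these letters were not in this window.

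In normal and non-tumour livers the 10 genes formed a pool dominated by Cyp3a11 and Cyp3a25. Cyp3a11, the main hepatic Cyp3a enzyme of adult mice, ranged from 539 to 3157 TPM in these 12 samples, and Cyp3a25 from 470 to 830 TPM. Together they made up 86.9% to 96% of the summed TPM of the members. Cyp3a13 (31.6 to 103 TPM) and Cyp3a59 (19 to 183 TPM) followed. Cyp2b9 was at 0.255 to 40.4 TPM, and all 3 Cyp2b genes together made up 0.0255% to 2.54% of the pool. The make-up of the pool was different in every tumour: Cyp2b genes held 6.88% to 39.3% of it (median 26.6%), and Cyp3a11 with Cyp3a25 held 44.7% to 69.6%. The summed level of the members was 310 to 1242 TPM in the 6 tumours and 1214 to 3941 TPM in the other 12 samples. Because the TPM of Cyp3a11 may be too low, the shares of the other members may be too high in every sample.

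**Figure D1:**
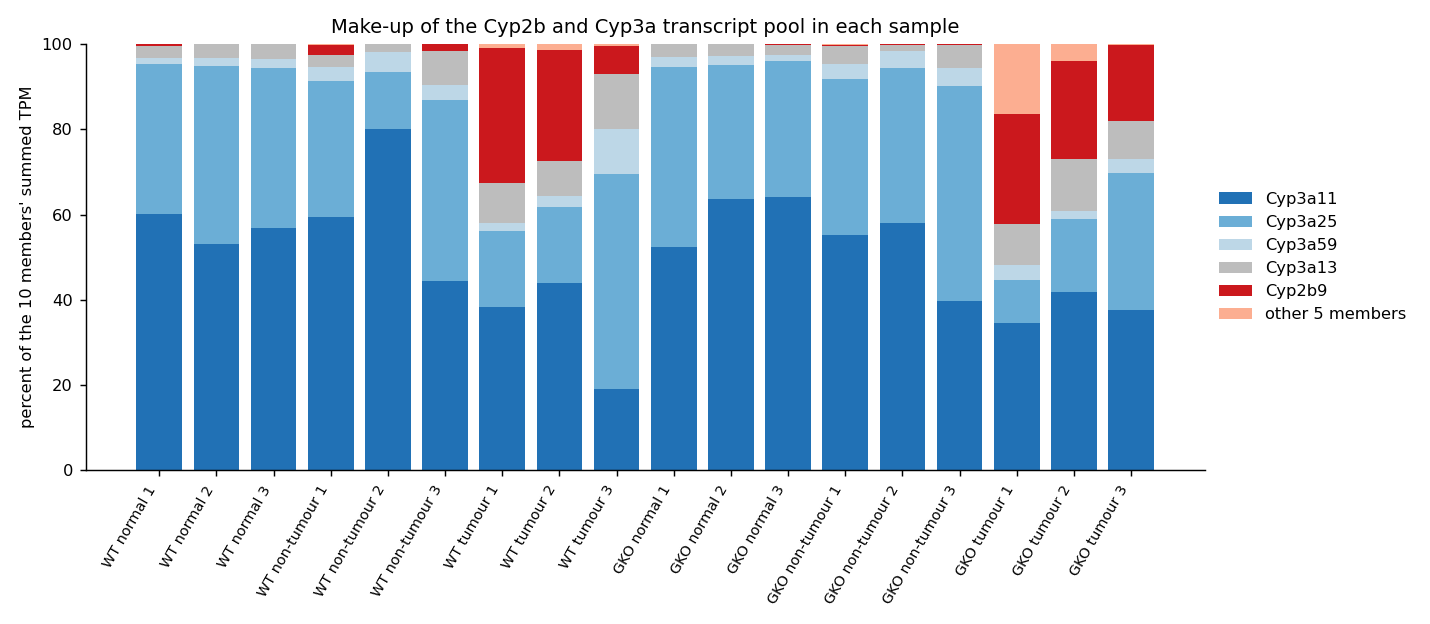
Share of each gene in the summed TPM of the 10 members (vertical axis, percent) for each of the 18 samples (horizontal axis, 3 bars per group). Cyp2b9 (red) is a thin band at most in normal and non-tumour livers and takes a visible part of every tumour, where Cyp2b genes together hold 6.88% to 39.3%. The TPM of Cyp3a11 may be too low, which would make the other shares too high.

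Several members were close to the limit of detection. Cyp3a16, known from fetal liver, did not exceed 0.704 TPM and had over 3 reads in 3 samples, and Cyp3a41a did not exceed 0.368 TPM and had over 3 reads in 1 sample. Neither entered any test, because neither reached a mean of 0.5 TPM in the samples compared. Cyp2b10, the classical target of CAR, did not exceed 4.1 TPM, had over 3 reads in 6 of 18 samples and was at 0 in 7. Of the 8 other rows of the 2 subfamilies, only Cyp3a63-ps, a pseudogene (5.27 TPM in GKO tumour 1), and Cyp3a57 (2.56 TPM in WT tumour 3) exceeded 1 TPM in any sample.

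The comparison of tumours with non-tumour livers asked how the tissue state changed these genes. Over both genotypes, with genotype as a covariate, 4 of the 7 members that reached the filter level in both tissues changed: Cyp3a11, Cyp3a25 and Cyp3a59 fell, and Cyp2b9 rose. Of the 8 members tested Cyp3a44 was also past the threshold, but it entered the test only through the tumours and is described below by its levels. Cyp3a11 was 5.27-fold lower, Cyp3a25 5.14-fold lower and Cyp2b9 14.9-fold higher in the 6 tumours, all on the scale of log2(TPM + 1), which understates changes of low genes. Of all 14106 genes tested by limma in this comparison, 20.1% were called at an adjusted p (Benjamini-Hochberg) under 0.05, of which 12.2% of the genes tested were higher and 7.87% were lower. Higher genes made up 60.8% of the calls, and 44.5% when each sample was centred on its median. The median difference over all genes was 0.08 here, 0.2 within GKO and -0.02 within WT. In bulk tissue, fewer cells of a type cannot be told apart from less RNA per cell.

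Cyp3a11 was at 137, 136 and 119 TPM in the 3 WT tumours and at 1085, 3157 and 572 TPM in the 3 WT non-tumour livers. In GKO mice it was at 428, 203 and 327 TPM in tumours and at 1000, 1319 and 539 TPM in non-tumour livers. The tumours of each genotype lay below all non-tumour and normal livers, with no overlap. In the same comparisons the groups were apart for 24.8% of all genes in WT and 38.3% in GKO. The difference on the log2 scale was -2.4 over both genotypes (SE 0.44, 95% interval -3.37 to -1.43, adjusted p = 0.00341 by limma) and -2.01 without WT non-tumour liver 2 (adjusted p = 0.00138 by limma). Within WT it was -3.25 (SE 0.59, adjusted p = 0.0314 by limma) and -2.58 without WT non-tumour liver 2 (0.0168), and within GKO -1.55 (SE 0.41), which did not pass the threshold (adjusted p = 0.0534 by limma). It did pass after median centring (0.0419), with all 18 samples in one fit (0.0404) and with voom (0.0282). The WT call was lost without WT tumour 1 (adjusted p = 0.121), WT tumour 2 (0.125) or WT non-tumour liver 1 (0.11), with those 2 tumours averaged (0.121) and with no filter on low values (0.0808), all by limma. In order of group means, WT tumours (131 ± 9.98 TPM, SD, n = 3) and GKO tumours (319 ± 113 TPM) were followed by WT normal livers (884 ± 166 TPM), GKO non-tumour livers (952 ± 392 TPM), GKO normal livers (978 ± 356 TPM) and WT non-tumour livers (1605 ± 1369 TPM). The last 4 groups overlapped.

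Cyp3a25, a further highly expressed member of the subfamily, was at 64, 55.5 and 313 TPM in WT tumours and at 583, 526 and 545 TPM in WT non-tumour livers. In GKO mice the tumours were at 127, 83.2 and 279 TPM and the non-tumour livers at 663, 830 and 683 TPM. All 6 tumours lay below all 12 other samples, and the third tumour of each genotype was the least reduced. The difference was -2.36 over both genotypes (SE 0.4, adjusted p = 0.00206 by limma) and -2.37 without WT non-tumour liver 2 (0.00314). Within GKO it was -2.32 (SE 0.43, adjusted p = 0.0194 by limma), a call that was lost without GKO non-tumour liver 2 (adjusted p = 0.061) or 3 (0.0757) and with no filter on low values (0.057). Within WT it was -2.4 (SE 0.64) and was not called (adjusted p = 0.0998 by limma), but it was called without WT tumour 3 (-3.19, adjusted p = 0.0015). The normal and non-tumour groups, with means from 550 ± 104 TPM (SD, n = 3, GKO normal livers) to 725 ± 91.3 TPM (GKO non-tumour livers), were close together, although all 3 GKO non-tumour livers lay above all 3 WT non-tumour livers (adjusted p = 0.643 by limma), as was so in one direction or the other for 13.2% of all genes.

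Cyp3a59, whose transcript is 96.5% identical to that of Cyp3a25, had another order of levels. It was lowest in WT tumours 1 and 2 (6.71 and 8.39 TPM) and GKO tumour 2 (8.98 TPM), whereas WT tumour 3 (65.3 TPM) lay among the WT non-tumour livers. GKO tumours 1 and 3 were at 42.4 and 28.8 TPM. Non-tumour livers were at 59.3, 183 and 44.8 TPM in WT and at 61.9, 87.9 and 57.8 TPM in GKO. All 3 GKO tumours lay below all GKO non-tumour livers, whereas the WT groups overlapped. The difference over both genotypes was -1.9 (SE 0.56, adjusted p = 0.033 by limma). The call was lost when WT non-tumour liver 1 or 2, WT tumour 1 or 2, GKO non-tumour liver 2 or 3 or GKO tumour 2 was left out (adjusted p = 0.0503 to 0.0734 by limma, the lowest without WT non-tumour liver 2). It was also lost with WT tumours 1 and 2 averaged (0.0701) and with no filter on low values (0.076). Within WT (-2.24, adjusted p = 0.237 by limma) and within GKO (-1.56, adjusted p = 0.0931 by limma) it was not called. The difference within WT was -1.64 without WT non-tumour liver 2.

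Cyp2b9, a steroid hydroxylase that is female-predominant in adult mouse liver, went the other way. It was at 113, 80.8 and 40.1 TPM in WT tumours and at 40.4, 1.17 and 18.9 TPM in WT non-tumour livers. In GKO mice it was at 320, 112 and 154 TPM in tumours and at 5.58, 5.92 and 1.39 TPM in non-tumour livers. Only the highest WT non-tumour liver reached the lowest WT tumour, and in GKO the tumours stood clear of every other GKO sample. The rise over both genotypes was 3.9 on the log2 scale (SE 0.72, adjusted p = 0.00341 by limma) and 3.5 without WT non-tumour liver 2 (adjusted p = 0.00474 by limma). Within GKO it was 37.3-fold (log2 5.22, SE 0.52, adjusted p = 0.00499 by limma), and this call held in all 12 alternatives (adjusted p = 0.00202 to 0.0338). Within WT the difference was 2.58 (SE 1.04) and did not pass (adjusted p = 0.238 by limma). Without WT non-tumour liver 2, which had the lowest Cyp2b9 of its group, it was 1.34 (adjusted p = 0.208 by limma). Group means ran from WT normal livers (1.8 ± 2.53 TPM, SD, n = 3) through GKO normal livers (2.52 ± 3.47 TPM), GKO non-tumour livers (4.3 ± 2.52 TPM) and WT non-tumour livers (20.2 ± 19.7 TPM) to WT tumours (77.8 ± 36.3 TPM) and GKO tumours (196 ± 110 TPM). Each neighbouring pair in this order overlapped.

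Cyp3a44, a female-predominant Cyp3a gene, was nearly silent outside tumours. It was at 2.16, 1.74 and 0.635 TPM in WT tumours and at 36.6, 1.74 and 1.68 TPM in GKO tumours, whereas the 12 normal and non-tumour livers did not exceed 0.374 TPM. It averaged less than the filter level of 0.5 TPM in the non-tumour livers and entered the test only through the tumours, so its difference is a description. Over both genotypes the difference was 1.88 with a pseudocount of 1 and 4.13 with 0.1, so its size depends on that choice, and it was 1.23 without GKO tumour 1. With no filter on low values it was not called (adjusted p = 0.0906 by limma). Within WT the difference was 1.09, and within GKO it was 2.67, or 1.41 without GKO tumour 1.

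Cyp2b13, the near copy of Cyp2b9, was at 164, 16.8 and 0.845 TPM in GKO tumours but at 1.23, 1.56 and 2.6 TPM in WT tumours. Non-tumour livers were at 0.397 to 3.89 TPM and normal livers at 0 to 0.376 TPM. Its difference between tumours and non-tumour livers was 3.24 in GKO (adjusted p = 0.163), 0.1 in WT (adjusted p = 0.927) and 1.67 over both (adjusted p = 0.218 by limma), none of which passed. Without GKO tumour 1 it was 1.62 in GKO and 0.78 over both. The GKO difference was called with all 18 samples in one fit (adjusted p = 0.0364 by limma) and without GKO tumour 3 (4.86, adjusted p = 0.0483 by limma). GKO tumour 1 held the highest level of Cyp2b9, Cyp2b13, Cyp2b10 (4.1 TPM) and Cyp3a44 among all samples. It was also the highest sample for Cyp3a13 (120 TPM) and Cyp3a41a (0.368 TPM, 7 reads). The same tumour had the lowest Nr1i3 (0.123 TPM), Glul (6.38 TPM) and Cyp2e1 (18.8 TPM). Cyp2b10 (-0.09 over both genotypes) and Cyp3a13 (-0.14), a constitutive Cyp3a enzyme also of the intestine, gave no call between tumours and non-tumour livers. For Cyp3a13 the 95% interval was -0.96 to 0.68, and its levels in tumours (25.2 to 120 TPM) spanned those of non-tumour livers (31.6 to 103 TPM).

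**Figure D2:**
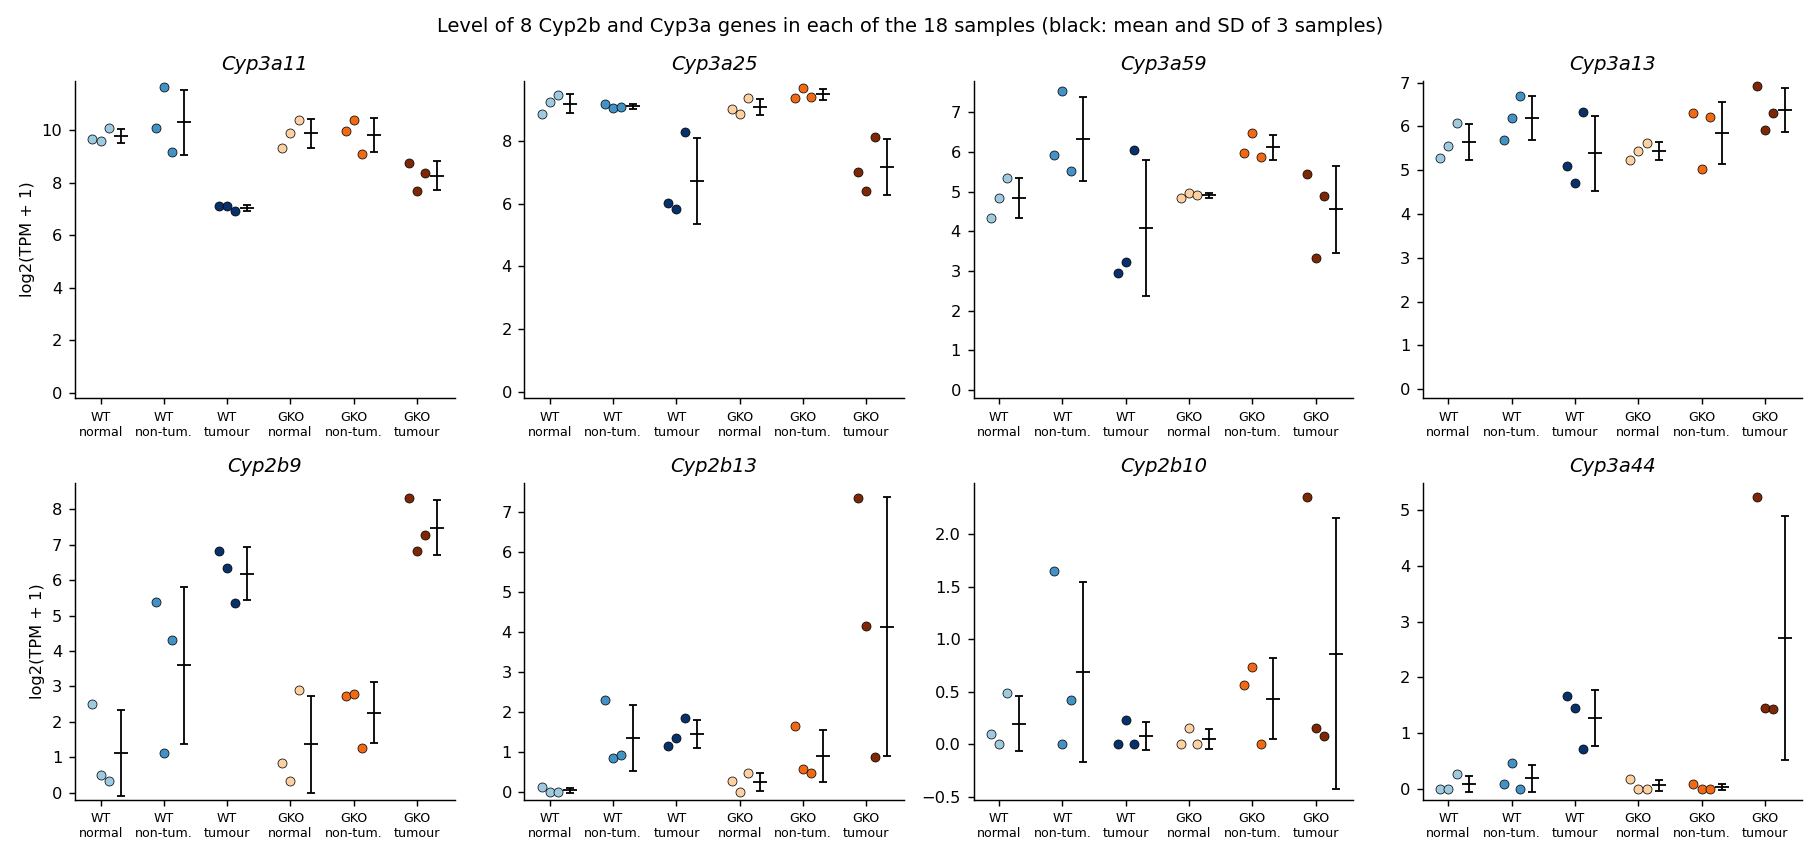
Levels of 8 members in the 18 samples as log2(TPM + 1) (vertical axis), by group (horizontal axis). Each point is a sample and the black mark is the mean with SD of the 3 samples. Cyp3a11 and Cyp3a25 are lower in all 6 tumours, Cyp2b9 is high in tumours, and Cyp2b13 is high in 2 GKO tumours. Cyp3a44 is at 36.6 TPM in GKO tumour 1 and at most 2.16 TPM in the other tumours.

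Within WT, 1 of 7 members tested was called (Cyp3a11, lower), against 4.23% of all genes (2.16% higher and 2.07% lower). At an unadjusted p under 0.05, 2 members were higher (Cyp2b9 and Cyp3a44) and 3 lower, against 9.31% and 10.6% of all genes. Without WT tumour 3, Cyp3a25 (adjusted p = 0.0015) and Cyp3a59 (0.0298) were called by limma as well, and Cyp3a44 was past the threshold. Cyp3a44 entered the tests within either genotype only through the tumours, so its part in the counts of this paragraph is a description. The same holds for Cyp2b10 within GKO, where it averaged 0.383 TPM in non-tumour livers and 1.42 TPM in tumours. Within GKO, 2 of 8 were called (Cyp2b9 higher and Cyp3a25 lower), against 11.7% of all genes (7.75% higher and 3.97% lower), and again 2 were higher (the same 2) and 3 lower at an unadjusted p under 0.05, against 21.6% and 10.1% of all genes. Higher genes made up 66.1% of all GKO calls and 44% after median centring. The 2 comparisons share no samples. Whether the tumour difference itself differed between genotypes was tested by an interaction term, which called 0 of 8 members and 0.0142% of all genes. At an unadjusted p under 0.05 it gave 1 member and 10.5% of all genes. The member was Cyp3a11 (1.71, 95% interval 0.01 to 3.4, adjusted p = 0.475 by limma), for which it was 1.04 without WT non-tumour liver 2. For Cyp2b9 the interaction was 2.64 (interval -0.18 to 5.46), and 3.88 without WT non-tumour liver 2. For Cyp3a25 it was 0.07 (interval -1.75 to 1.9). With voom on recovered reads the interaction called 0 members as well.

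**Figure D3:**
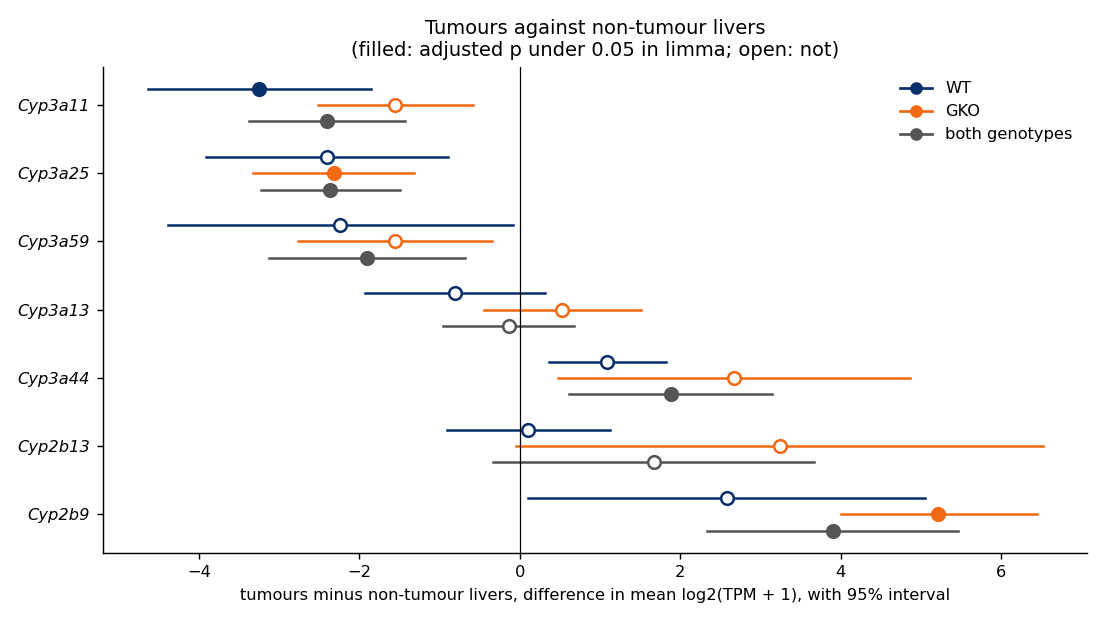
Difference between tumours and non-tumour livers for 7 members (vertical axis) in mean log2(TPM + 1) (horizontal axis), within WT, within GKO and over both genotypes. Lines are 95% intervals from limma and filled points have an adjusted p under 0.05. Cyp3a11, Cyp3a25 and Cyp3a59 lie to the left of 0 and Cyp2b9 and Cyp3a44 to the right in all 3 comparisons. Cyp3a44 entered the test only through the tumours.

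The comparison of GKO with WT tumours asked whether loss of miR-181ab1 changed these genes in tumours. No member of the 8 tested was called by limma or by voom, and 0.0215% of all genes were. At an unadjusted p under 0.05, 2 members were higher in GKO tumours, as were 5.37% of all genes. Cyp3a11 was at 203 to 428 TPM in GKO against 119 to 137 TPM in WT tumours, which did not overlap (14.7% of all genes did not), with a difference of 1.22 (SE 0.3, 95% interval 0.5 to 1.94, adjusted p = 0.374 by limma). Cyp2b9 differed by 1.3 (interval 0.11 to 2.48, adjusted p = 0.537 by limma). For Cyp2b13 (2.68, interval -0.71 to 6.07), Cyp3a13 (1, interval -0.1 to 2.1), Cyp3a25 (0.46, interval -1.27 to 2.2), Cyp3a44 (1.43, interval -0.93 to 3.78), Cyp3a59 (0.48, interval -1.67 to 2.62) and Cyp2b10 (0.79, interval -0.62 to 2.19) the intervals included 0 and were wide. With 3 samples a group, differences of this size were not resolved. Cyp2b10 averaged 0.0576 TPM in WT tumours and entered this test only through the GKO tumours (1.42 TPM), so its difference is a description.

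Livers without tumours were compared between genotypes and with untreated livers. GKO against WT non-tumour livers gave no call among 7 members or among all genes (0%), and GKO against WT normal livers none among 5 members or all genes (0%), by limma and by voom. No member had an unadjusted p under 0.05 in either. Cyp2b10 entered the test of non-tumour livers only through WT (0.824 TPM on average, against 0.383 TPM in GKO). The effect of DEN on non-tumour liver also gave no call among 6 members, with 0.00744% of all genes called in WT and 0% in GKO, and its interaction with genotype gave none (0%). At an unadjusted p under 0.05, 2 members were higher in WT non-tumour livers than in WT normal livers, as were 22.4% of all genes, and 1 was higher in GKO, as were 4.29%. In both genotypes Cyp3a59 was higher in every non-tumour liver than in every normal liver: WT normal livers were at 19 to 39.2 TPM and non-tumour livers at 44.8 to 183 TPM, and GKO normal livers at 27.7 to 30.3 TPM and non-tumour livers at 57.8 to 87.9 TPM. The difference was 1.49 in WT (adjusted p = 0.169 by limma) and 1.2 in GKO (adjusted p = 0.53 by limma), and neither passed the correction. Without WT non-tumour liver 2 the WT difference was 0.88. Normal and non-tumour livers did not overlap for 33.9% of all genes in WT and 8.73% in GKO. Cyp2b13 also did not overlap, at 0 to 0.376 TPM in normal and 0.397 to 3.89 TPM in non-tumour livers, but it entered the test only through the non-tumour livers. It was 1 of the 2 members counted in WT. Its difference was 1.31 in WT and 0.65 in GKO. The nearest GKO samples for Cyp2b13, normal liver 3 (0.376 TPM) and non-tumour liver 3 (0.397 TPM), had 6 reads each. For Cyp2b9 the differences were 2.49 (adjusted p = 0.216) and 0.89 (adjusted p = 1), for Cyp3a13 0.56 (adjusted p = 0.305) and 0.42 (adjusted p = 1), for Cyp3a11 0.52 (adjusted p = 0.569) and -0.07 (adjusted p = 1), and for Cyp3a25 -0.09 (adjusted p = 0.807) and 0.41 (adjusted p = 1), WT first and all by limma. Without WT non-tumour liver 2 the WT differences were 3.73 for Cyp2b9 and -0.15 for Cyp3a11, neither called. In WT the median of all genes was itself 0.32 higher in non-tumour livers.

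The receptors and the electron and heme supply of the P450s were measured in the same samples. CAR (Nr1i3) fell 6.57-fold in tumours over both genotypes (log2 -2.72, SE 0.52, adjusted p = 0.00392 by limma), and the difference was -2.94 without WT non-tumour liver 2. It was at 1.75, 2.98 and 8.14 TPM in WT tumours and at 0.123, 7.34 and 9.08 TPM in GKO tumours, below all 6 non-tumour livers (12.8 to 46.4 TPM) and all 6 normal livers (11 to 19.5 TPM). PXR (Nr1i2) was at 22.3 to 56.1 TPM in tumours and 48.2 to 89.5 TPM in non-tumour livers, a fall of 1.77-fold (adjusted p = 0.039 by limma) that was lost in 11 of 19 alternatives (highest adjusted p = 0.0843), including without WT non-tumour liver 2 (0.0579). Their partner Rxra (0.06, adjusted p = 0.911) and Hnf4a (0.23, adjusted p = 0.33), a hepatocyte factor, were not called by limma, and the sign for Rxra turned with median centring. Of the 4 receptors, 2 were lower and 0 higher, with a median of -0.38, against 7.87% of all genes lower and 12.2% higher.

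Of 6 P450 partners 2 fell and 0 rose over both genotypes (median -0.72), against 7.87% of all genes lower and 12.2% higher. Cytochrome b5 (Cyb5a), an electron donor, fell 2.22-fold (adjusted p = 0.0031 by limma), and Alas1, which starts heme synthesis, fell 2.5-fold (adjusted p = 0.0437 by limma), a call lost in 14 of 19 alternatives. P450 oxidoreductase (Por) differed by -0.81 (adjusted p = 0.142), Pgrmc1 by -0.63 (adjusted p = 0.0913), Cyb5r3 by 0.58 (adjusted p = 0.157) and ferrochelatase (Fech) by 0.24 (adjusted p = 0.493), none of them called by limma. Within WT or GKO alone 0 receptors and 0 partners were called. At an unadjusted p under 0.05, 2 receptors and 4 partners were lower in WT, as were 10.6% of all genes. In GKO 1 receptor and 1 partner were lower and 1 partner was higher, against 10.1% of all genes lower and 21.6% higher.

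**Figure D4:**
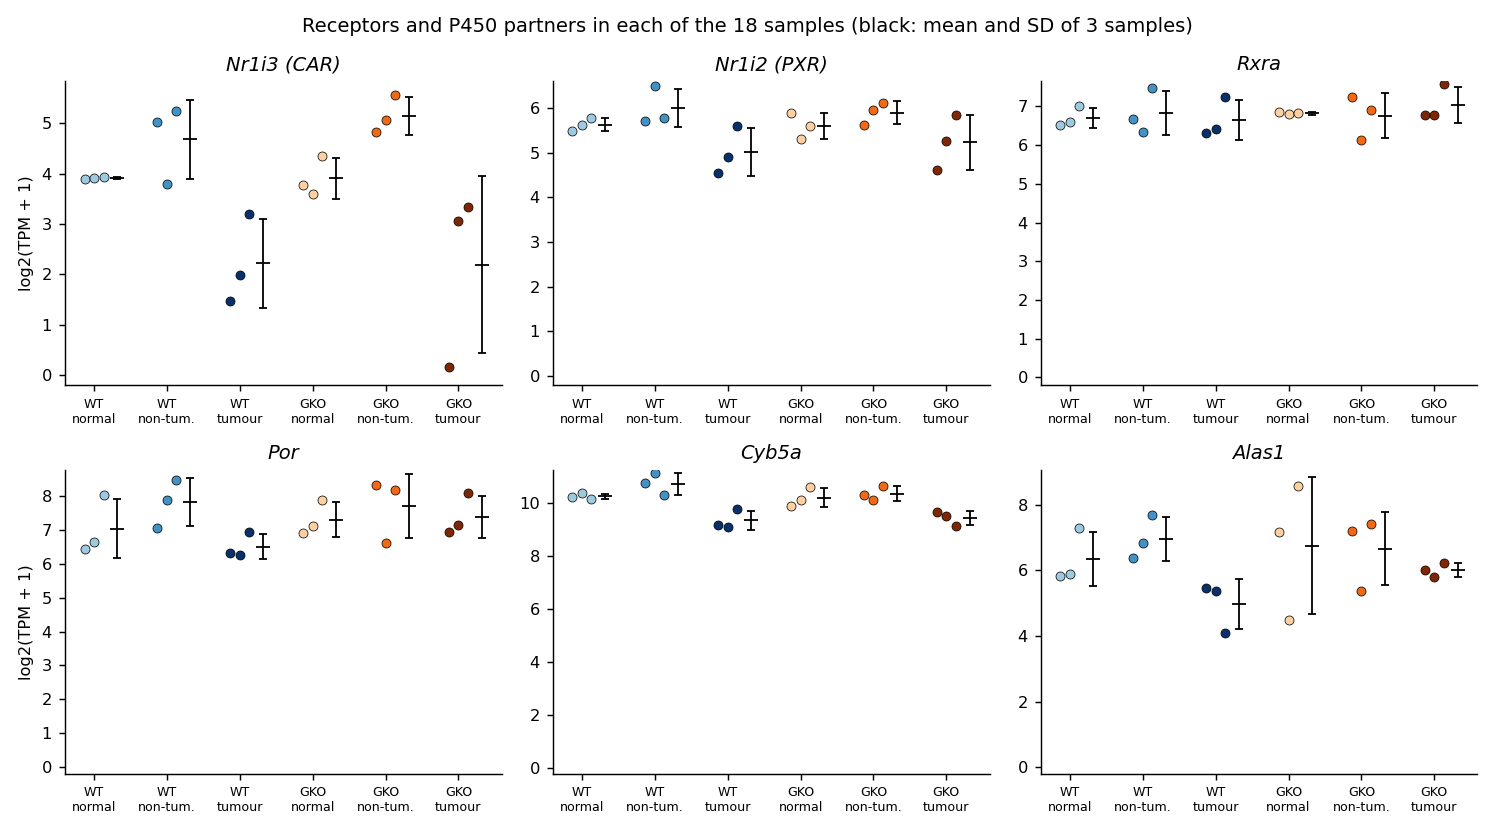
Levels of CAR, PXR, Rxra, Por, Cyb5a and Alas1 in the 18 samples as log2(TPM + 1) (vertical axis), by group (horizontal axis). Each point is a sample and the black mark is the mean with SD of the 3 samples. CAR is lower in every tumour than in every other sample, and Rxra overlaps in all groups.

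Other genes known to respond to CAR and PXR did not all move alike. Of 31 such genes 13 fell and 0 rose in tumours over both genotypes, with a median of -0.96 against 0.08 for all genes, and 8 fell in each genotype alone. For each list of this paragraph the shares over all genes were 7.87% lower and 12.2% higher over both genotypes. Within WT 2.07% of all genes were lower, and within GKO 3.97%. The lists were chosen with earlier results of these data known. Cyp2c54 (45.8-fold lower), Cyp2c50 (31.3-fold lower) and Cyp1a2 (30.5-fold lower), all P450 enzymes of the liver, changed most, with adjusted p values of 5.4e-05, 0.000146 and 0.000593 by limma. Without WT non-tumour liver 2, 13 fell and 1 rose. A few were high in WT tumours 1 and 2 and in GKO tumour 1: Gstm3 was at 1394, 990 and 380 TPM, Gsta1, also a glutathione transferase, at 303, 301 and 57.3 TPM, and Akr1b7, an aldo-keto reductase, at 45.7, 39.2 and 108 TPM. In the other 3 tumours these genes did not exceed 17.5, 3.84 and 2.67 TPM. They were not high in tumours only: WT non-tumour liver 2 was at 8423, 917 and 27 TPM. The summed level of the list was 2462 to 20525 TPM in tumours (median 6883) and 8083 to 41006 TPM in non-tumour livers (median 9606). Of 15 male-biased liver genes 9 fell and 0 rose (median -2.4), led by Elovl3 (25.5-fold lower), a fatty acid elongase, Cyp4a12b (16.4-fold lower), a fatty acid hydroxylase, and the transporter Slco1a1 (9.88-fold lower). Of 11 other female-biased genes tested out of 14, 3 were called higher and 2 lower (median 0.66). Cyp2a4 was at 1905 to 16013 TPM in tumours and 24.4 to 215 TPM in non-tumour livers, a rise of 121-fold (adjusted p = 4.06e-05 by limma), but it shares most of its sequence with Cyp2a5 and its reads are uncertain. Cyp17a1, a steroid hydroxylase, rose 5.63-fold, whereas Acot3 and the prolactin receptor Prlr fell 4.85-fold and 3.3-fold. The third gene called higher, the sulfotransferase Sult2a2, was at 0 to 0.826 TPM in non-tumour livers and at 0 to 41.6 TPM in tumours, entered the test only through the tumours, and was not called in 13 of 19 alternatives. Of 9 genes of growth hormone signalling, the receptor Ghr fell 2.35-fold and the factor Onecut2 7.07-fold, while Trim24 was called higher (1.79-fold), a call lost in 15 of 19 alternatives.

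The pericentral genes, which mark hepatocytes near the central vein where P450 enzymes are concentrated, fell as a whole. All 10 were lower (median -3.28), and their summed level was 139 to 2121 TPM in tumours and 5275 to 13666 TPM in non-tumour livers. Axin2, 1 of the 10, entered the test only through the non-tumour livers. Cyp2e1 (28.6-fold lower), which activates DEN, Oat (23.6-fold lower) and Rgn (16.2-fold lower) changed most. Of 11 periportal genes 2 rose and 1 fell (median 0.27), with Cdh1 7.15-fold higher, Gls2 2.52-fold higher and Cyp2f2 5.42-fold lower. The call of Gls2 was kept in 12 of 19 alternatives (highest adjusted p = 0.0692 by limma). For each list of this paragraph the shares over all genes were 12.2% higher and 7.87% lower. Hepatocyte markers did not fall as a group: of 9 found, 4 rose and 1 fell, with Ahsg 5.82-fold, Alb 3.24-fold and Serpina1a 2.59-fold higher.

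**Figure D5:**
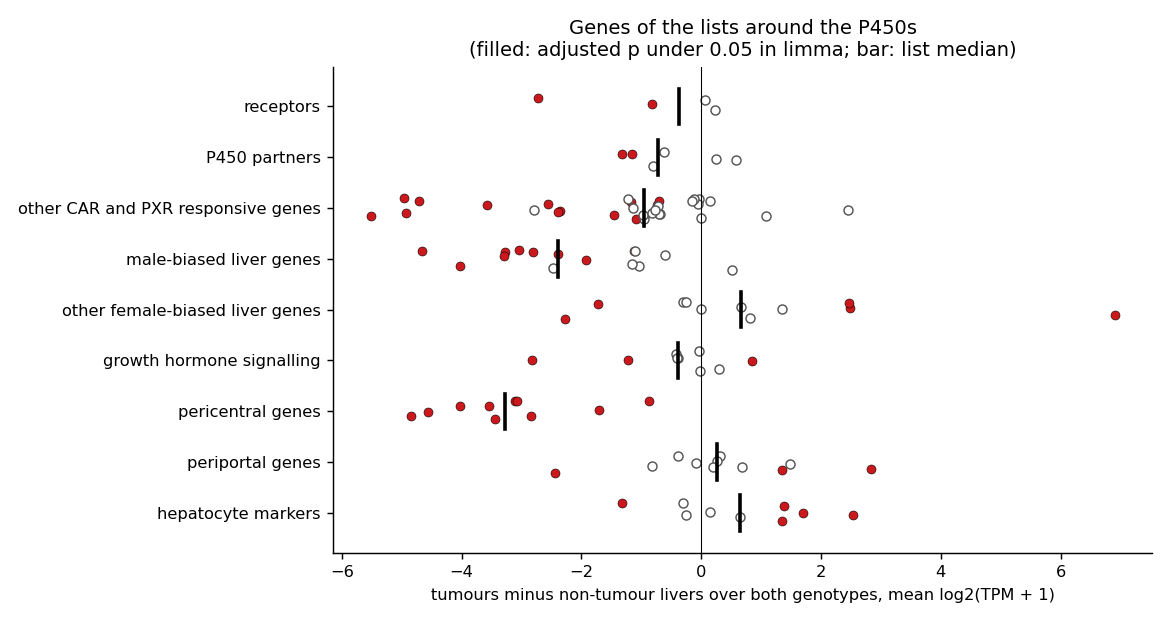
Difference between tumours and non-tumour livers over both genotypes in mean log2(TPM + 1) (horizontal axis) for each tested gene of 9 lists (vertical axis). Filled points have an adjusted p under 0.05 by limma and the bar is the median of the list. All 10 pericentral genes lie to the left of 0, as do the called male-biased and CAR and PXR responsive genes.

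Some markers of macrophages, fibroblasts and endothelial cells also differed between tumours and non-tumour livers. For each list of this paragraph the shares over all genes were 12.2% higher and 7.87% lower. Of 7 macrophage markers 3 fell (Clec4f 7.85-fold, Marco 6.75-fold and Vsig4 4.14-fold) and their summed level was 32 to 120 TPM in tumours and 52.6 to 585 TPM in non-tumour livers. Of 6 fibroblast markers tested 3 rose (Col1a1 8.34-fold, Col3a1 5.21-fold and Col1a2 3.68-fold) and 1 fell, with sums of 35.3 to 157 TPM and 29.9 to 66.9 TPM. Of 7 endothelial markers 3 rose (Cdh5 2.46-fold, Pecam1 2.44-fold and Kdr 1.7-fold), with sums of 84.5 to 134 TPM and 53.6 to 114 TPM. No T and B cell marker of 6 tested and no cholangiocyte marker of 4 tested was called by limma. At an unadjusted p under 0.05 the counts were 1 and 0, against 35% of all genes. The cholangiocyte markers summed to 22.2 to 959 TPM in tumours, where Spp1 reached 934 TPM in GKO tumour 2 and 536 TPM in GKO tumour 3, and to 30.2 to 76.9 TPM in non-tumour livers. Of 10 acute phase genes 1 rose (Lcn2, 16.6-fold) and 2 fell (Orm3 7.71-fold and Saa3 4.89-fold). The calls of Vsig4 and Saa3 were kept in 14 and 15 of 19 alternatives. The part of these markers in the differences of the Cyp2b and Cyp3a genes was not tested.

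Within the 18 samples the members fell into patterns, described here without a test because samples of a group share their condition. Cyp3a11 and Cyp3a25 varied together (Pearson r = 0.79 of log2(TPM + 1)), as did Cyp2b13 and Cyp3a44 (r = 0.87), whereas Cyp2b9 ran against Cyp3a25 (r = -0.75) and Cyp3a11 (r = -0.68). Cyp2b9 and Cyp2b13, with near-identical upstream windows, correlated at r = 0.71. Among 11890 other genes averaging 1 TPM or more, the patterns most like that of Cyp2b9 were those of Chst14 (r = 0.928), Osbpl3 (0.914) and Cyp2a4 (0.913). For Cyp3a11 they were Srr (0.926), Gm3787 (0.924) and Ablim3 (0.919), and for Cyp3a25 they included Cdo1 (0.938) and Nat8f2 (0.932). For Cyp3a59 they were Akr1d1 (0.904), Svip (0.878) and Abcb11 (0.857), and for Cyp3a13 Tmed1 (0.881), Cisd1 (0.878) and Mfsd1 (0.875). Cyp2b13 was most like Noxa1 (0.947), Hk1 (0.88) and Hao2 (0.879), and Cyp3a44 like Vmn2r3 (0.949), Hk1 (0.945) and Fam129a (0.94). GKO tumour 1 held the highest level of the last 2 members.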

How the data were processed

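Total RNA of 18 frozen liver samples was sequenced. The deposited values are TPM, made by the authors from reads aligned to mm10 with STAR 2.7.3a and counted with featureCounts 2.0.0 (Subread), per the submitters' processing notes. The annotation, the handling of reads with several matches and the step from counts to TPM are not given in the sources used here. Multiplying TPM by GENCODE M21 exon length gave whole reads (within 0.02) for 97.95% to 98.67% of low values, which gave the depth per sample. Here log2(TPM + 1) of genes averaging 0.5 TPM or more over the compared samples was tested with limma 3.58.1 (lmFit, eBayes with trend, R 4.3.3), with Benjamini-Hochberg adjustment over all genes tested. Groups of 3 follow the labels. The test was checked on simulated data. Folds and SE are of log2(TPM + 1). All 10 members are named in the text, with every other Cyp2b and Cyp3a row by level, all receptors and partners, the 3 list genes that changed most among those called, and the 3 genes most alike, of which 1 is not reported here. Members and lists were chosen with earlier results of these data known. Dcn, Gstm3, Gsta1, Akr1b7, Cyp2c55, Glul, Spp1, Acot3, Axin2 and Prlr were named after their values were seen. Upstream sequences are from RefSeq (GRCm38.p6), where all 10 members matched. No protein sequences were used here. Alternatives tried were a pseudocount of 0.1, no filter, median centring, all 18 samples in one fit, a replicate block, voom on recovered reads, WT tumours 1 and 2 averaged, and leaving out each sample.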

Additional observations from a re-analysis of the deposited data

How the results depend on the processing

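Of 729 recomputed fold changes of members, 666 kept their direction and side of the threshold, 28 lost a call, 13 gained one and 22 changed sign. A value that was not called before or after counted as kept. Left out of this count were GKO against WT non-tumour livers, GKO against WT normal livers and the interaction of DEN with genotype. Cyp2b9, Cyp3a11 and Cyp3a25 stayed called over both genotypes in all 19 alternatives. The members called within WT (1) numbered 0 with no filter, 2 with all 18 samples in one fit, 0 with WT tumours 1 and 2 averaged and 0 to 4 with 1 sample left out. Within GKO (2) they numbered 1 with no filter, 5 in one fit, 4 with voom and 1 to 3 with 1 sample left out, and over both genotypes (5) 3 with no filter, 3 with tumours averaged and 3 to 5 with 1 sample left out. Some of these counts include Cyp3a44, which entered the filtered tests only through the tumours. The cause of the changes in these counts was not tested. The sign turned for Cyp3a59 in GKO against WT tumours with tumours averaged (-0.02), for Cyp3a13 over both genotypes with tumours averaged (0.04), for Rxra over both with median centring (-0.07) and voom (-0.1), and for Cyp3a25 in the interaction with median centring (-0.15), voom (-0.1) and tumours averaged (-0.32). With 1 sample left out, signs turned over both genotypes for Rxra (-0.11 to 0.22), Cyp2b10 (-0.25 to 0.18) and Cyp3a13 (-0.4 to 0.08), and within WT for Cyp2b13 (-0.15 to 0.57). They turned in GKO against WT tumours for Cyp3a25 (-0.02 to 1.25) and Cyp3a59 (-0.09 to 1.46), and in the interaction for Cyp3a25 (-0.4 to 0.86). In non-tumour against normal liver they turned for Cyp3a11 (GKO -0.35 to 0.3, WT -0.15 to 1.08) and for Cyp3a25 (WT -0.24 to 0.05).

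With the replicate block, Cyp3a59 over both genotypes had an adjusted p of 0.0511, Alas1 0.0606 and Trim24 0.0693, and no other call of a member changed. The numbers share no stated mouse. Deviations of tumours 1, 2 and 3 correlated with those of the same-numbered non-tumour liver at 0.01, -0.01 and 0.25 in WT. In GKO these values were 0.12, 0.07 and 0.04. The same number was the closest match for every GKO tumour but only for number 3 in WT. These values do not settle whether equal numbers mark a mouse. The block gave 361 called genes within WT against 592 without it. Over the alternatives, calls over all genes ran from 163 to 1533 within WT (592), 229 to 2627 within GKO (1652), 0 to 147 in GKO against WT tumours (3), 0 to 91 in the interaction (2) and 1867 to 3797 over both genotypes (2829). In non-tumour against normal liver they ran from 0 to 4 in WT (1) and 0 to 2 in GKO (0), and for the interaction of DEN from 0 to 2 (0).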
